A study of Mus musculus with 8 samples.

Results

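The RNF (ring finger) and TRIM (tripartite motif) genes were taken as every gene whose only annotated symbol was Rnf or Trim followed by a number, with Rnf7 and Rnf43 left out. A letter after the number, as in Rnf19a or Trim30a, was accepted. This gave 133 genes, 75 Rnf and 58 Trim, of 18193 genes with a single symbol on the array. The rule used names and no measured change, but earlier results of these data were known when it was set. Each gene was read from its brightest probe set, a group of short probes against 1 transcript, as log2 of the deposited intensity. The cells, NG4, are a line of mouse embryonic stem cells, and each group was analysed 48 h after transfection with its siRNA (a short RNA that directs the destruction of a matching messenger RNA). Of the 4 groups, siNonTarget received a non-targeting siRNA and was the control, siSox2 was directed at the pluripotency factor Sox2, siPsmd14 at the deubiquitinase of the proteasome lid, and siDdb1 at the adaptor of CUL4 ubiquitin ligases. Each group had 2 arrays. Nothing in the labels says that the arrays of a group came from separate cultures, so a p-value reflects no more than how far these arrays vary, and that variation could be technical.

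Ubiquitin ligases choose the protein to which ubiquitin is attached. In RING-type ligases a zinc-binding RING domain holds a ubiquitin-charged E2 enzyme close to that protein, and the chain built there can send it to the proteasome or change its activity. TRIM proteins join a RING to B-box and coiled-coil domains and a variable C-terminal end. RNF is a naming series for genes with a RING and says little about the rest of the protein. The names are not a perfect guide to the domain: Trim14, Trim16, Trim29, Trim44 and Trim66 are known to lack a RING, and the domain was not checked from protein sequences here. In embryonic stem cells the best known members include Trim28, which represses retroviral elements, Rnf2 of Polycomb repressive complex 1, and Trim71, which delays differentiation.

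The targeted transcripts were measured first as a check of the labels. Ddb1 read 11.88 and 11.81 in siNonTarget and 9.67 and 10.73 in siDdb1, a log2 fold change of -1.65 (SE 0.28) that did not pass (limma adjusted p = 0.147). Sox2 was -0.38 in siSox2 (adjusted p = 0.301) and Psmd14 -0.21 in siPsmd14 (adjusted p = 0.522), so their brightest probe sets do not establish those knockdowns. The 8 markers of embryonic stem cells, Pou5f1 and Nanog among them, lay above the array median on every array. Their summed intensity was 54070 to 59090 in siNonTarget, 45210 to 49500 in siSox2, 47300 to 49290 in siPsmd14 and 52070 to 53290 in siDdb1. The array medians lay between 4.775 and 4.849 on the log2 scale.

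Of the 133 genes, 95 lay above the array median on all 8 arrays, 31 on no array and 7 on some. Brightness also depends on the probes, so it does not order transcripts. The probe sets with the highest control means belonged to Trim28, Trim71, Trim27, Rnf187, a coactivator of c-Jun, and Rnf44. Those with the lowest belonged to Rnf133, Trim5, Trim30d, Trim66 and Trim9, with no array above 3.46. For such dim genes a lack of change is hardly a measurement. The groups of 2 arrays were about as tight for these genes as for others, with a median within-group SD of 0.111 against 0.109 over all genes.

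Few RNF and TRIM transcripts passed the test against siNonTarget. In siSox2, 4 rose and 0 fell: Rnf128, Rnf213, Rnf19a and Trim67. That is 3.01% of the 133, where 4.28% of all genes passed in either direction, 2.81% higher and 1.46% lower (limma, Benjamini-Hochberg adjusted p under 0.05 over 45037 probe sets). In siPsmd14, 3 rose and 0 fell, namely Rnf128, Trim54 and Rnf183, which is 2.26% against 1.89% of all genes, 1.7% higher and 0.187% lower. In siDdb1, limma called 0 of 133, where 0.044% of all genes passed. All 3 comparisons use the same siNonTarget arrays. The counts therefore rest on a common baseline and the shares are near the background.

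At an unadjusted p under 0.05 there were 25 members in siSox2 (18.8%, all genes 19.1%), 28 in siPsmd14 (21.1%, all genes 17.1%) and 15 in siDdb1 (11.3%, all genes 9.86%). The middle of the family lay near 0. Its median log2 fold change was -0.009 in siSox2, 0.010 in siPsmd14 and -0.006 in siDdb1, beside -0.028, -0.015 and -0.015 over all genes. Those medians are so close to 0 that their sign changed between settings, which spanned -0.044 to 0.011, -0.029 to 0.032 and -0.029 to 0.010. Both ends in siSox2 and siDdb1, and the upper end in siPsmd14, were reached by leaving out 1 array. The counts hang on single arrays. Without either siNonTarget array, limma called 0 members in siSox2 and 0 in siPsmd14. In siSox2, 1 passed without siSox2 replicate 2 and 2 passed without either siDdb1 array, and in siPsmd14, 0 passed without siPsmd14 replicate 1.

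**Figure D1:**
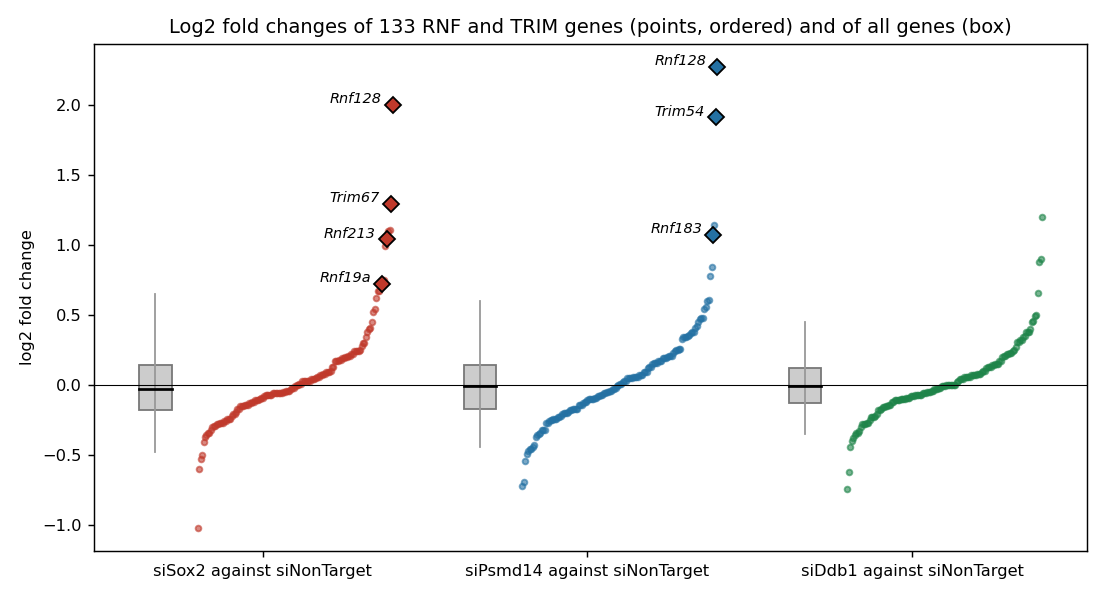
Log2 fold changes of the 133 RNF and TRIM genes against siNonTarget (y axis) for the 3 knockdowns, with each gene a point in rising order and genes past an adjusted p of 0.05 as named diamonds. The grey box and line at the left of each knockdown give the middle 50% and the 5th to 95th percentile of all genes. The points run from -1.02 to 2.0 in siSox2, from -0.72 to 2.27 in siPsmd14 and from -0.74 to 1.20 in siDdb1, and most lie near 0.

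Rnf128 had the largest change of any member. Rnf128 (GRAIL) is a membrane-anchored ligase with a protease-associated domain, found on endosomes and best known for keeping T cells unresponsive. Its log2 intensity was 7.46 and 7.05 in siNonTarget, 8.84 and 9.67 in siSox2, 9.82 and 9.22 in siPsmd14, with 8.58 and 8.32 in siDdb1. All 6 knockdown arrays lay above both control arrays, with siDdb1 the lowest of the 3 knockdowns. The rise was 3.99-fold in siSox2 (log2 2.0, SE 0.29, 95% interval 1.34 to 2.65, limma adjusted p = 0.00901). It was 4.81-fold in siPsmd14 (log2 2.27, SE 0.29, adjusted p = 0.0115).

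In siDdb1 the estimate for Rnf128 was 2.29-fold (log2 1.20, 95% interval 0.54 to 1.85), which did not pass after adjustment (adjusted p = 0.283). Between knockdowns none of its differences passed: siPsmd14 minus siSox2 was 0.27 (95% interval -0.39 to 0.92), siDdb1 minus siSox2 -0.80 (adjusted p = 0.224) and siPsmd14 minus siDdb1 1.07 (adjusted p = 0.19). Its second probe set gave 2.04 in siSox2 (adjusted p = 0.00727), 2.07 in siPsmd14 (adjusted p = 0.0134) and 1.01 in siDdb1 (adjusted p = 0.349). Both probe sets therefore passed in the same comparisons. The call rests on few arrays, however. For siSox2 the adjusted p was 0.0516 without control replicate 1, 0.121 without control replicate 2 and 0.0584 without siSox2 replicate 2. For siPsmd14 it was 0.086, 0.147 and, without siPsmd14 replicate 1, 0.0868.

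The other 7 protease-associated membrane ligases, Rnf13, Rnf130, Rnf133, Rnf148, Rnf149, Rnf150 and Rnf167, passed in no comparison with siNonTarget. Over the list of 8, limma gave an unadjusted p under 0.05 for 1 gene in siSox2, 3 in siPsmd14 and 1 in siDdb1, and the median was -0.07 in siSox2, 0.05 in siPsmd14 and 0.07 in siDdb1. Over all genes 19.1%, 17.1% and 9.86% had such a p, and 4.28%, 1.89% and 0.044% passed. A list of 8 is too short to read a share from. Rnf130, a regulator of cell death, stood at -0.07, 0.48 and 0.23, and Rnf149 at -0.07, 0.16 and -0.00. Of the 8, 3 were below the array median on every array.

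**Figure D2:**
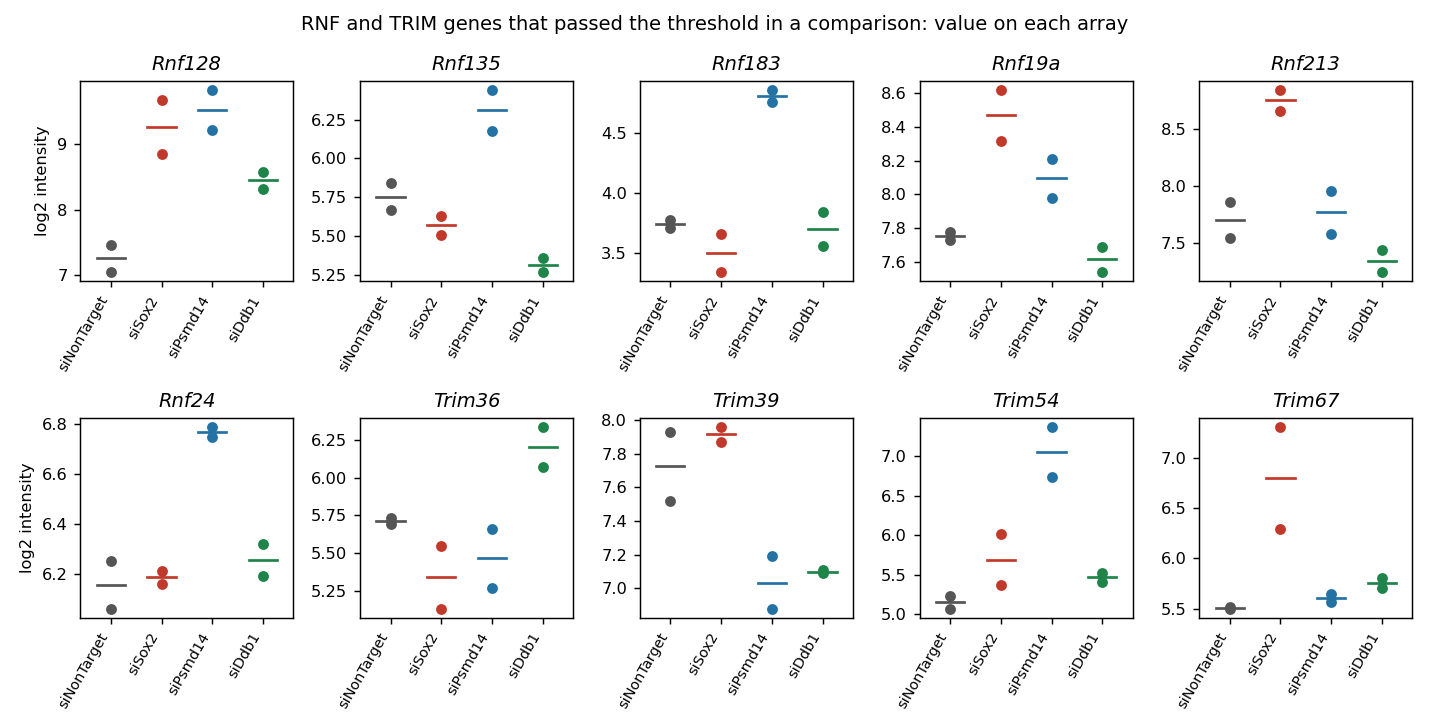
Log2 intensity on each array (points) and group mean (bars) for the 10 RNF and TRIM genes that passed in at least 1 of the 6 comparisons, with the 4 siRNA groups on the x axis. The scales differ between panels. Rnf128 is higher on all knockdown arrays, Rnf213, Rnf19a and Trim67 are highest in siSox2, and Trim54, Rnf183, Rnf135 and Rnf24 are highest in siPsmd14.

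Among the cytosolic signalling and trafficking ligases Rnf213 stood out in siSox2. Rnf213 (mysterin) is a giant ligase with an AAA+ ATPase core, known as a susceptibility gene for moyamoya disease. It read 7.86 and 7.55 in siNonTarget, 8.84 and 8.66 in siSox2, 7.58 and 7.96 in siPsmd14, with 7.25 and 7.44 in siDdb1. Both siSox2 arrays lay above the other 6, and both siDdb1 arrays lay below both controls. The rise in siSox2 was 2.06-fold (log2 1.04, SE 0.17, adjusted p = 0.016). The log2 fold change was 0.07 in siPsmd14 (adjusted p = 0.907) and -0.36 in siDdb1 (adjusted p = 0.657).

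Set directly against siSox2, Rnf213 was 1.96-fold lower in siPsmd14 (log2 -0.97, adjusted p = 0.0224) and 2.64-fold lower in siDdb1 (log2 -1.40, adjusted p = 0.00445). With 1 array left out the siDdb1 difference passed in 8 of 8 fits, and the siPsmd14 difference in 5 of 8, lost without either siSox2 array or siPsmd14 replicate 1 (adjusted p up to 0.124). Its other probe set was dim, between 4.56 and 5.14, and gave -0.05, -0.12 and -0.12, so a single probe set carries the result. The call against siNonTarget was lost without control replicate 1 (adjusted p = 0.0558) or 2 (0.163) and without siSox2 replicate 1 (0.063) or 2 (0.0831). The rest of the 9 cytosolic ligases did not pass, with list medians of -0.04, 0.01 and -0.05. Rnf125, which targets the viral RNA sensor RIG-I, read 10.00 and 10.31 in siNonTarget and 9.11 and 9.76 in siPsmd14, a log2 fold change of -0.72 (adjusted p = 0.142). In siSox2 it was -0.53 (adjusted p = 0.251) and in siDdb1 -0.27 (adjusted p = 0.82). All 6 of its knockdown arrays lay below both controls.

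RING-between-RING ligases pass ubiquitin over a cysteine of their own before it reaches the substrate. The list held only ligases with an Rnf name, so its values do not describe the whole class. Of the 8 measured, 1 passed in siSox2, Rnf19a (Dorfin), and 6 had a positive estimate. In siPsmd14 and siDdb1 limma called 0, with 4 and 1 at an unadjusted p under 0.05, beside 5 in siSox2. Over all genes 4.28% passed in siSox2 and 19.1% had an unadjusted p under 0.05, and the list of 8 is too short to read a share from. The list median was 0.65 in siSox2, 0.21 in siPsmd14 and 0.17 in siDdb1, where the median over all genes was -0.028, -0.015 and -0.015. Rnf19a read 7.78 and 7.73 in siNonTarget, 8.32 and 8.62 in siSox2, 8.21 and 7.98 in siPsmd14, with 7.54 and 7.69 in siDdb1. The siSox2 arrays were the highest, the siPsmd14 arrays came next without overlapping the controls, and the siDdb1 arrays lay just below the controls.

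Rnf19a rose 1.64-fold in siSox2 (log2 0.72, SE 0.15, adjusted p = 0.0397), and its other probe set gave 0.65 (adjusted p = 0.0348). The estimate was 0.34 in siPsmd14 (adjusted p = 0.333) and -0.14 in siDdb1 (adjusted p = 0.889), and the log2 difference of siDdb1 from siSox2 was -0.85 (adjusted p = 0.0192), kept in 5 of 8 fits with 1 array left out and lost without siSox2 replicate 2 or either siDdb1 array (adjusted p up to 0.159). The siSox2 call sits near the threshold. It was lost without control replicate 1 (adjusted p = 0.165) or 2 (0.241), without siSox2 replicate 2 (0.324) or without either siDdb1 array (0.0557), and after quantile normalization (0.0516).

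Its paralog Rnf19b, studied in natural killer cells, fell just short. It read 8.41 and 8.11 in siNonTarget and 8.86 and 8.90 in siSox2, a log2 fold change of 0.62 (SE 0.14, adjusted p = 0.0503), with 0.34 in siPsmd14 and 0.20 in siDdb1. Rnf14, a coactivator of the androgen receptor, read 9.41 and 9.24 in siNonTarget, 9.92 and 10.07 in siSox2, and 10.04 and 9.69 in siPsmd14. Its estimates were 0.67 (adjusted p = 0.064), 0.54 (adjusted p = 0.156) and, in siDdb1, 0.21 (adjusted p = 0.829). Neither gene overlapped its controls in siSox2, and another Rnf14 probe set did pass there (0.84, adjusted p = 0.0401).

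Rnf144b and Rnf217 had large but uneven estimates. Rnf144b, a p53-induced ligase, read 5.53 and 5.82 in siNonTarget and 6.33 and 7.24 in siSox2, a log2 fold change of 1.11 (SE 0.32, adjusted p = 0.118), while its other probe sets gave 0.24 and 0.12. Rnf217 read 4.42 and 5.29 in siNonTarget and gave 1.10 in siSox2 (adjusted p = 0.175), 1.14 in siPsmd14 (adjusted p = 0.181) and 0.88 in siDdb1 (adjusted p = 0.578). It was above both controls on all 6 knockdown arrays, but its probe set is of the type whose probes can match other transcripts, and its other probe sets gave -0.01, 0.11 and 0.36 in siSox2. Rnf31 (HOIP), the catalytic subunit of the complex that builds linear ubiquitin chains, was at -0.06, -0.09 and -0.07. The remaining members Rnf216 (0.17) and Rnf144a (-0.24) did not pass in siSox2.

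**Figure D3:**
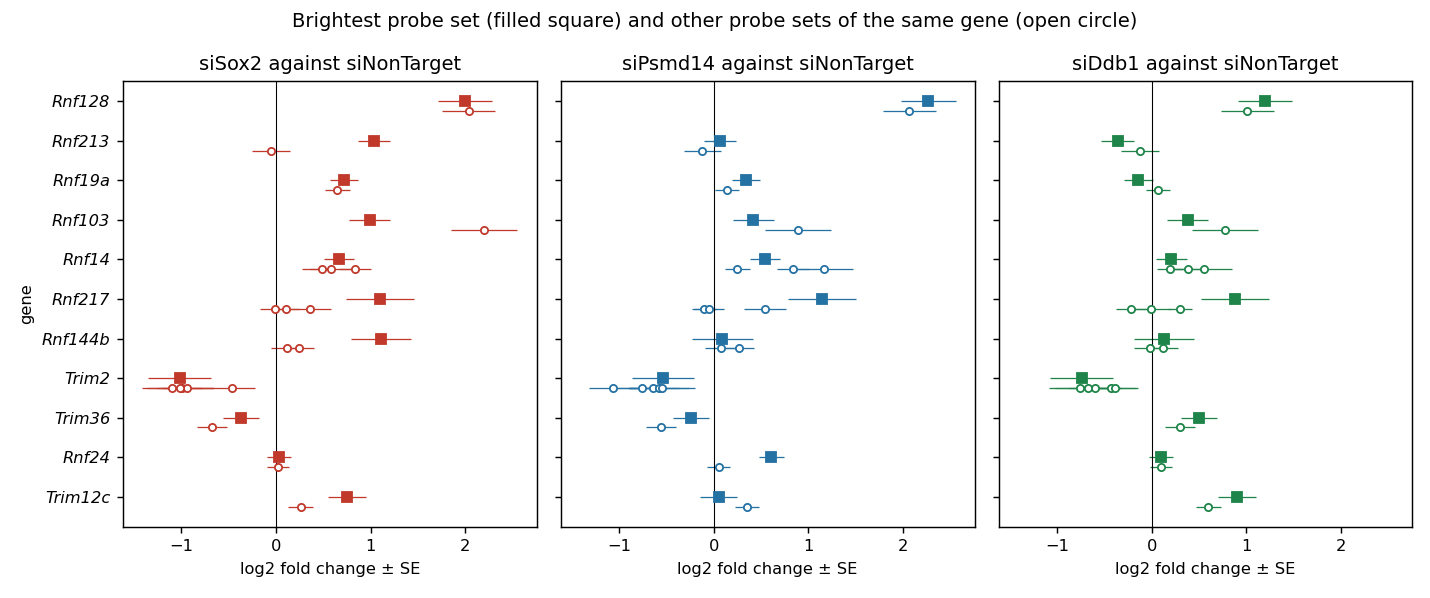
Log2 fold change with its standard error (x axis) for the brightest probe set (filled squares) and every other probe set (open circles) of 11 RNF and TRIM genes, for each knockdown against siNonTarget. The probe sets of Rnf128 lie together at 2.0 and 2.04 in siSox2, while those of Rnf213 are apart at 1.04 and -0.05.

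Ligases of the endoplasmic reticulum and related membranes gave 1 call against siNonTarget among 12, Rnf183 in siPsmd14. Their medians were -0.06, -0.09 and 0.00. The share of all genes that passed in siPsmd14 was 1.89%. Rnf183 is a membrane-anchored ligase known mainly from kidney. It read 3.77 and 3.71 in siNonTarget, 3.66 and 3.34 in siSox2, 4.86 and 4.76 in siPsmd14, with 3.56 and 3.84 in siDdb1. The siPsmd14 arrays were the highest, near the array median of 4.808, and the other 6 lay well below their array medians. The rise was 2.1-fold (log2 1.07, SE 0.15, adjusted p = 0.0155). Fold changes of signals this dim tend to be understated.

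Against siSox2 the Rnf183 difference in siPsmd14 was 1.31 (adjusted p = 0.00372) and passed with any 1 of the 8 arrays left out. Against siDdb1 it was 1.11 (adjusted p = 0.023), a call kept in 3 of 8 such fits and lost without either control array, siPsmd14 replicate 1 or either siDdb1 array (adjusted p up to 0.182). Its call against siNonTarget was lost without control replicate 1 (adjusted p = 0.118), control replicate 2 (0.167) or siPsmd14 replicate 1 (0.121). Rnf103, another ligase of the endoplasmic reticulum, read 5.37 and 5.57 in siNonTarget and 6.09 and 6.82 in siSox2, a log2 fold change of 0.99 (SE 0.22, adjusted p = 0.0515). Its dimmer probe set read 4.37 and 5.00 in siNonTarget and 6.30 and 7.48 in siSox2, and passed (2.20, adjusted p = 0.0136). In siPsmd14 the brighter probe set gave 0.42 and in siDdb1 0.38. Rnf145, a sterol-responsive ligase, was at -0.07 in siSox2, -0.49 in siPsmd14 (adjusted p = 0.336) and -0.34 in siDdb1.

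Of the microtubule and muscle TRIM genes, 6 of 7 were measured (not Trim55). Their medians were -0.12 in siSox2, 0.05 in siPsmd14 and 0.28 in siDdb1, and 1 gene rose in siSox2 and another in siPsmd14. Past the threshold were 4.28% of all genes in siSox2 and 1.89% in siPsmd14. Trim54 (MuRF3), which binds microtubules and sarcomeres in muscle, read 5.23 and 5.07 in siNonTarget, 5.37 and 6.01 in siSox2, 7.37 and 6.74 in siPsmd14, with 5.52 and 5.41 in siDdb1. Every knockdown array was above both controls, and the siPsmd14 arrays were above all others. The rise in siPsmd14 was 3.75-fold (log2 1.91, SE 0.24, adjusted p = 0.0115). In siSox2 the estimate was 0.54 (adjusted p = 0.342) and in siDdb1 0.32 (adjusted p = 0.822).

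Directly compared, Trim54 was 2.58-fold higher in siPsmd14 than in siSox2 (adjusted p = 0.0225) and 3.01-fold higher than in siDdb1 (adjusted p = 0.0376). The first call was kept in 4 of 8 fits with 1 array left out and lost without either control array, siSox2 replicate 1 or siPsmd14 replicate 1 (adjusted p up to 0.121). The second was kept in 3 of 8 and lost without either control array, siPsmd14 replicate 1 or either siDdb1 array (up to 0.229). The call against siNonTarget was lost without control replicate 1 (adjusted p = 0.101), control replicate 2 (0.147) or siPsmd14 replicate 1 (0.0728). That siPsmd14 array had the largest gap between the 3' and 5' Actb control probe sets, 0.346 on the log2 scale against 0.0962 to 0.214 on the other 7, a sign of RNA quality whose part in the siPsmd14 rises of Trim54, Rnf128 and Rnf183 was not tested. Of 5 muscle markers limma called 0 in siPsmd14, with 1 at an unadjusted p under 0.05. The largest estimate there was that of Actn2, which was lower (-0.56, adjusted p = 0.281). Myog, Myl1 and Tnnt2 were below the array median on all arrays, and the summed intensity of the 5 was 112.3 to 135.9 in siNonTarget, 143.2 to 183.3 in siSox2, 95.54 to 110.8 in siPsmd14 and 103.2 to 127.6 in siDdb1. Trim63 (MuRF1), the muscle-atrophy ligase that pairs with Trim54, read 6.65 and 7.14 in siNonTarget, 7.79 and 7.67 in siPsmd14, with 7.78 and 7.33 in siDdb1. It was above both controls in those groups, but at 0.84 (SE 0.21, adjusted p = 0.108) and 0.66 (adjusted p = 0.443) it did not pass, and in siSox2 it was 0.03.

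Trim67, a neuronal TRIM with a microtubule-binding COS box, was the siSox2 member of this list. It read 5.50 and 5.52 in siNonTarget, 7.31 and 6.29 in siSox2, 5.57 and 5.65 in siPsmd14, with 5.80 and 5.71 in siDdb1. The siSox2 arrays were highest but lay 1 log2 unit apart, while the other groups were tight. The rise was 2.44-fold (log2 1.29, SE 0.27, adjusted p = 0.0399), with 0.09 in siPsmd14 and 0.24 in siDdb1. Its differences from siSox2 fell short, -1.19 in siPsmd14 (adjusted p = 0.0531) and -1.05 in siDdb1 (adjusted p = 0.0803). The size of the rise depended on the array: 0.78 without siSox2 replicate 1 and 1.80 without replicate 2. The call was lost without control replicate 1 (adjusted p = 0.197) or 2 (0.233), without either siPsmd14 array (0.0568) or without either siDdb1 array (0.0611).

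Trim36, a COS-box ligase of sperm and microtubules, differed between knockdowns. It read 5.69 and 5.73 in siNonTarget, 5.13 and 5.55 in siSox2, 5.66 and 5.27 in siPsmd14, with 6.07 and 6.34 in siDdb1. The siSox2 and siPsmd14 arrays lay below the controls and the siDdb1 arrays above them. No difference from the control passed: -0.37 in siSox2 (adjusted p = 0.412), -0.24 in siPsmd14 (adjusted p = 0.621) and 0.50 in siDdb1 (adjusted p = 0.528). Between knockdowns, siPsmd14 minus siDdb1 fell short at -0.74 (adjusted p = 0.159). However, siDdb1 was higher than siSox2 by 0.86 (SE 0.19, adjusted p = 0.044), and the other probe set gave 0.98 (adjusted p = 0.0143). The call of the brighter probe set was kept in 2 of 8 fits with 1 array left out, those without a siPsmd14 array, and the estimate ranged from 0.65 to 1.08 (adjusted p up to 0.202).

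**Figure D4:**
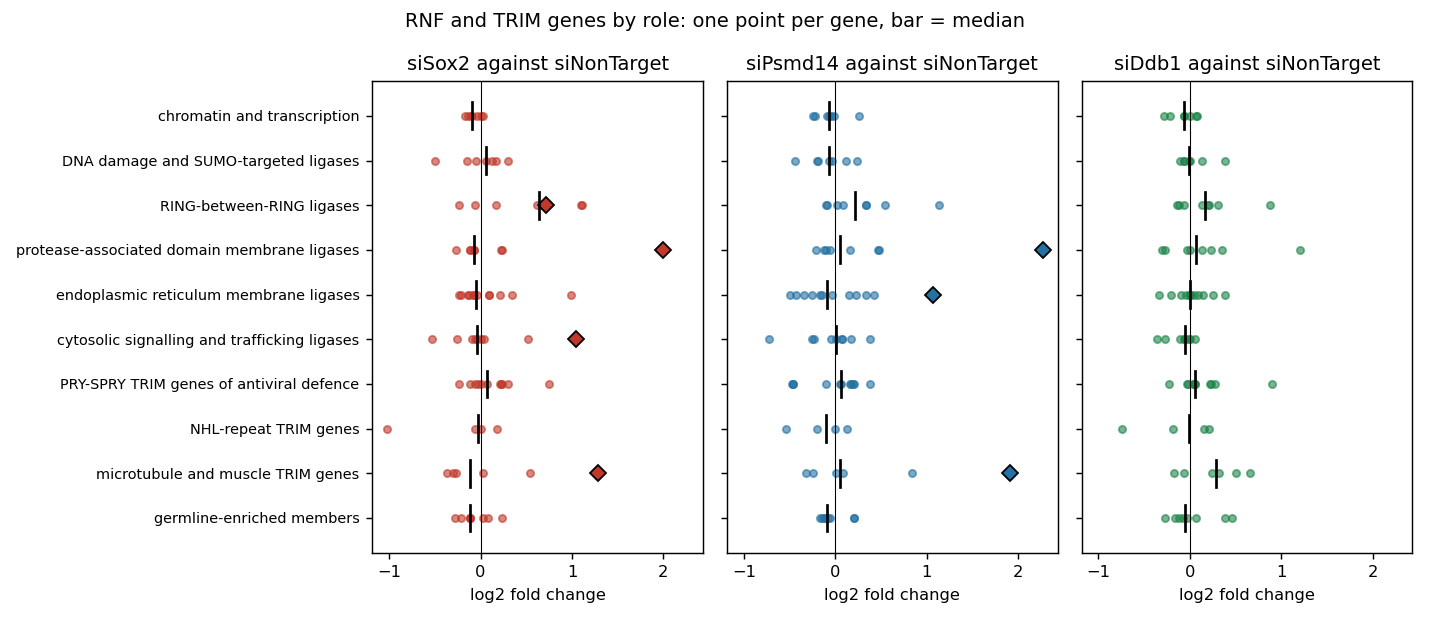
Log2 fold changes against siNonTarget (x axis) of the RNF and TRIM genes in each of the 10 role lists (rows), 1 point a gene, with the list median as a black bar and genes past an adjusted p of 0.05 as diamonds. The RING-between-RING list has its median at 0.65 in siSox2, and the other medians in that comparison lie between -0.12 and 0.07.

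The siSox2 group also carried markers of other lineages. Of 7 trophoblast markers, 5 rose in siSox2, among them Plac1 (log2 6.23), Krt7 (4.47) and Ascl2 (3.50). Their summed intensity was 291.2 to 297.3 in siNonTarget, 3303 to 4648 in siSox2, 539.2 to 598.2 in siPsmd14 and 445.9 to 656 in siDdb1. Elf5, a defining trophoblast factor, was below the array median on every array. In siPsmd14 Krt7 passed (1.94, adjusted p = 0.0218), while all 7 had positive estimates, with a median of 0.80 and 6 at an unadjusted p under 0.05. In siDdb1 limma called 0 of the 7, again all positive, with a median of 0.54 and 4 at an unadjusted p under 0.05. Of 4 primitive endoderm markers, Gata6 (1.87, adjusted p = 0.0403) and Foxa2 (1.60, adjusted p = 0.00753) rose in siSox2, with a summed intensity of 79.62 to 87.31 in siNonTarget, 202.6 to 210.8 in siSox2, 97.78 to 105.7 in siPsmd14 and 87.6 to 98.92 in siDdb1. Fibroblast markers summed to 154.3 to 168.7 in siNonTarget and 133.9 to 166.9 in siSox2, with 1 of 6, Thy1, lower (-1.06). Embryonic stem cell markers lay lower at the same time: all 8 had negative estimates in siSox2 (median -0.39, 5 at an unadjusted p under 0.05, Esrrb past the threshold at -0.58, adjusted p = 0.0399). In siPsmd14 all 8 were negative too (median -0.38, 4 at an unadjusted p under 0.05, 0 called by limma), and in siDdb1 7 were (median -0.14). These marker values accompany the siSox2 rises of Rnf128, Rnf213, Rnf19a and Trim67 and the siPsmd14 rises of Rnf128, Trim54 and Rnf183. Their part in those rises was not tested, and in bulk RNA more cells of a type and more RNA per cell cannot be told apart.

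Between knockdowns 8 members passed in at least 1 comparison. In siPsmd14 against siSox2, 4 were higher and 2 lower (4.51%, where 4.03% of all genes passed, 1.98% higher and 2.05% lower). In siDdb1 against siSox2, 1 was higher and 3 lower (3.01%, all genes 4.63%, 2.03% higher and 2.6% lower). In siPsmd14 against siDdb1, 3 were higher and 0 lower (2.26%, all genes 0.588%, 0.456% higher and 0.132% lower). At an unadjusted p under 0.05 the members numbered 30 (22.6%, all genes 19.5%), 30 (22.6%, all genes 19%) and 23 (17.3%, all genes 12.4%). Single arrays moved these counts too. In siPsmd14 against siSox2, 3 passed without either control array or siSox2 replicate 2, 2 without siSox2 replicate 1 and 1 without siPsmd14 replicate 1. In siDdb1 against siSox2, 1 passed without either siDdb1 array, and in siPsmd14 against siDdb1, 0 passed without either control array, siPsmd14 replicate 1 or either siDdb1 array.

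Rnf135 (Riplet), which ubiquitinates RIG-I, set siPsmd14 apart from both other knockdowns. It read 5.67 and 5.84 in siNonTarget, 5.51 and 5.63 in siSox2, 6.44 and 6.18 in siPsmd14, with 5.27 and 5.36 in siDdb1. The siPsmd14 arrays were the highest and the siDdb1 arrays the lowest. The difference of siPsmd14 was 0.74 from siSox2 (adjusted p = 0.0271) and 1.0 from siDdb1 (adjusted p = 0.0264), while against siNonTarget it was 0.56 (adjusted p = 0.104) in siPsmd14, -0.19 in siSox2 and -0.44 (adjusted p = 0.433) in siDdb1. With 1 array left out, each of the 2 calls was kept in 3 of 8 fits. The one against siSox2 was lost without either control array, either siSox2 array or siPsmd14 replicate 1 (adjusted p up to 0.145), and the one against siDdb1 without either control array, siPsmd14 replicate 1 or either siDdb1 array (up to 0.193).

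Rnf24, a membrane ligase that binds TRPC channels, had the weakest call. It read 6.25 and 6.06 in siNonTarget, 6.16 and 6.21 in siSox2, 6.75 and 6.79 in siPsmd14, with 6.19 and 6.32 in siDdb1. Both siPsmd14 arrays were above all others. The difference from siSox2 was 0.58 (adjusted p = 0.0494), was lost whichever array was left out, and became 0.0661 when array medians were subtracted. From siNonTarget it was 0.61 (adjusted p = 0.0586), and another probe set gave 0.05.

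Trim39, known to stabilise the apoptosis factor MOAP1, went the other way. It read 7.93 and 7.52 in siNonTarget, 7.96 and 7.87 in siSox2, 6.88 and 7.19 in siPsmd14, with 7.09 and 7.11 in siDdb1. All 4 arrays of siPsmd14 and siDdb1 lay below all 4 arrays of siNonTarget and siSox2. Its difference from siSox2 was -0.88 in siPsmd14 (adjusted p = 0.0291) and -0.81 in siDdb1 (adjusted p = 0.0366). With 1 array left out the first was kept in 5 of 8 fits and lost without either siSox2 array or siPsmd14 replicate 1 (adjusted p up to 0.159), and the second was kept in 4 of 8 and lost without either siSox2 or either siDdb1 array (up to 0.173). The differences from siNonTarget, -0.69 (adjusted p = 0.0941) and -0.62 (adjusted p = 0.336), did not pass. The siPsmd14 and siDdb1 levels differed by -0.07 (95% interval -0.45 to 0.31).

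Promoters are shown for Rnf128, Trim54 and Rnf183, called in siPsmd14, and for Trim12c, which passed in no comparison. They were chosen because RefSeq provides them and 2 of the 3 members called in siPsmd14 shared a short motif. Each is the 250 bases before the annotated start on the gene's strand in the build GRCm38.p6, and 106 of the 133 genes had such a window. Capitals mark a match. The window of Rnf213, called in siSox2, holds none of the words searched and is not printed. Trim54 (chr5:31116362-31116611, plus strand) and Rnf183 (chr4:62434641-62434890, minus strand) hold an AP-1 word, Trim12c (chr7:104353350-104353599, minus strand) holds an interferon-response word, and Rnf128 (chrX:139610370-139610619, plus strand) holds none of the words searched.
Trim54: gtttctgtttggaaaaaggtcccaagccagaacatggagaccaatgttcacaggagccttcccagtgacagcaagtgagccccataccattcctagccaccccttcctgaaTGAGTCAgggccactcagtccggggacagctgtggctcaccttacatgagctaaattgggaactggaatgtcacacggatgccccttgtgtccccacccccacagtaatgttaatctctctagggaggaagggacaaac
Rnf183: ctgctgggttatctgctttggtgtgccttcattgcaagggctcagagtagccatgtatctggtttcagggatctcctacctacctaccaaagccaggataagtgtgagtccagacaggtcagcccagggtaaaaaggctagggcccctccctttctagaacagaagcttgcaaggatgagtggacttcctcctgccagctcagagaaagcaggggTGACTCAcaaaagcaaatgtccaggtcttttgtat
Trim12c: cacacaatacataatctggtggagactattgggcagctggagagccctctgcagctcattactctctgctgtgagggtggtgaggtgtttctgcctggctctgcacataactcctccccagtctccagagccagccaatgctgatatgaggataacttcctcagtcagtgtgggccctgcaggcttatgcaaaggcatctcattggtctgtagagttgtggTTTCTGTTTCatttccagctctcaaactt
Rnf128: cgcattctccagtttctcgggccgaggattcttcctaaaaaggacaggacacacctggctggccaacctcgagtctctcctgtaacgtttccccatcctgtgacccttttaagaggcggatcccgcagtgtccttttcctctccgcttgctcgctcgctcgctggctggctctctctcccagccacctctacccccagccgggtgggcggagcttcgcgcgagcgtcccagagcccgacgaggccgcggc

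The AP-1 word was TGAGTCA or, on the other strand, TGACTCA. Its first base lies 139 bases before the start in Trim54 and 35 in Rnf183, and the window at the other annotated start of Rnf183 holds none. It occurs in 4.46% of the 32851 promoter windows of all genes and in 4.38% of the 137 windows of these genes. The 6 members with it were Trim54 (1.91 in siPsmd14), Rnf183 (1.07), Rnf180 (-0.04), Trim44 (-0.14), Trim10 (-0.17) and Trim2 (-0.54). Rnf180 and Trim10 are dim, so their values say little. The interferon-response word, GAAA repeated after any 2 bases, or TTTC repeated in that way on the other strand, occurs in 2.98% of all windows and 5.84% of member windows. It was found in 8 members, Trim12c (0.90 in siDdb1), Trim30a (0.27), Trim30d (0.04), Trim5 (-0.02), Rnf146 (-0.06), Rnf182 (-0.09), Rnf121 (-0.21) and Trim26 (-0.23). Trim5, Trim12c, Trim30a and Trim30d lie close together in the genome, so their windows are not separate cases. Trim5, Trim30a, Trim30d and Rnf182 are dim. A SOX word (ACAATGG or CCATTGT, 3.02% of all windows and 2.19% of member windows), an NRF2 word (TGACNNNGC or GCNNNGTCA, 10.2% and 8.03%) and TATAAA on the gene's strand (7.59% and 5.84%) were also searched, and an AP-1 and an NRF2 match can overlap. The words were chosen after values were seen, and a match is a description of letters, not of binding. Member windows were richer in G and C than all windows, with medians of 57.2% and 52.4%.

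PRY-SPRY TRIM genes recognise viral or immune targets through their C-terminal domain. Of 15 listed, 11 were measured (not Trim30b, Trim30c, Trim34b or Trim38), 6 were below the array median on all arrays, and limma called 0 in each comparison with siNonTarget. At an unadjusted p under 0.05 there was 1 in siSox2, 3 in siPsmd14 and 1 in siDdb1, and the medians were 0.07, 0.06 and 0.06. The shares of all genes were 19.1%, 17.1% and 9.86% at that p and 4.28%, 1.89% and 0.044% past the threshold. Of 17 interferon-induced genes listed for comparison, 14 were measured, and 9 of them were below the array median on all arrays. Limma called 0 of these in each comparison with siNonTarget, with 3, 2 and 3 at an unadjusted p under 0.05 and medians of -0.14, -0.19 and -0.12. Trim12c read 7.20 and 6.70 in siNonTarget, 7.69 and 7.70 in siSox2, 6.78 and 7.22 in siPsmd14, with 7.78 and 7.92 in siDdb1. The siSox2 and siDdb1 arrays lay above both controls, and the siPsmd14 arrays overlapped them. The estimates were 0.75 in siSox2 (adjusted p = 0.0916), 0.05 in siPsmd14 and 0.90 in siDdb1 (SE 0.20, adjusted p = 0.244), while its other probe set gave 0.26, 0.35 and 0.60.

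Trim25, which activates RIG-I, read 11.23 and 11.33 in siNonTarget and 10.75 and 10.88 in siPsmd14, below both controls (-0.46, adjusted p = 0.13), and its other probe sets gave -0.36 and -0.27. Trim21, the cytosolic antibody receptor, was at -0.47 in siPsmd14 (adjusted p = 0.161) and Trim26 at -0.46 (adjusted p = 0.142), neither past the threshold. In siSox2 these genes were at -0.24, -0.03 and -0.06, and in siDdb1 at 0.06, 0.23 and -0.23. The dim members Trim5 and Trim30d stayed between 2.80 and 3.39 on all arrays.

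Many TRIM genes lie side by side in the genome. In the gene order of GRCm38.p6 the measured genes formed 9 runs with at most 5 steps between neighbours. The longest, Trim6, Trim34a, Trim5, Trim12a, Trim12c, Trim30a and Trim30d, had 5 positive estimates of 7 in siSox2, 7 in siPsmd14 (0.05 to 0.38) and 6 in siDdb1. Paralogs there are close in sequence, and probes may be shared. Trim34a, Trim5, Trim12a, Trim30a and Trim30d were below the array median on every array, so the signs of their estimates say little. A run of 6, Trim26, Trim15, Trim10, Trim40, Trim31 and Rnf39, had 0 positive estimates in siSox2 (-0.36 to -0.06), 4 in siPsmd14 and 3 in siDdb1. In that run no gene passed, and Trim10, an erythroid TRIM, was lowest at -0.36 in siSox2 and -0.38 in siDdb1. Trim10, Trim15, Trim40 and Trim31 were below the array median on every array, and Rnf39 on all but siDdb1 replicate 1. The signs in this run therefore say little as well.

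The NHL-repeat TRIM genes bind RNA or cargo through a propeller of repeats, and limma called 0 of 4 in each comparison with siNonTarget, with 1, 0 and 0 at an unadjusted p under 0.05 and medians of -0.02, -0.10 and -0.01. Of all genes 4.28%, 1.89% and 0.044% passed, and 19.1%, 17.1% and 9.86% had an unadjusted p under 0.05. Trim71 (Lin41), a target of let-7 that promotes stem cell proliferation, read 11.68 and 11.88 in siNonTarget, 11.53 and 11.92 in siSox2, 11.17 and 11.99 in siPsmd14, with 11.92 and 11.94 in siDdb1. The first siPsmd14 array stood lowest, and the first siSox2 array was also below both controls. The Trim71 estimates were -0.06, -0.20 (SE 0.25) and 0.15. Trim2, a neuroprotective ligase of neurofilaments, read 10.03 and 10.22 in siNonTarget, 9.43 and 8.78 in siSox2, 9.12 and 10.06 in siPsmd14, with 9.09 and 9.69 in siDdb1. The siSox2 and siDdb1 arrays lay below both controls, and siPsmd14 replicate 2 overlapped them. The estimates were -1.02 (SE 0.33, adjusted p = 0.163), -0.54 (adjusted p = 0.516) and -0.74 (adjusted p = 0.624). All 6 Trim2 probe sets had negative estimates in each knockdown, from -0.47 to -1.10 in siSox2, and none passed. Trim32 was at 0.01, 0.13 and 0.21 and Trim3 at 0.18, 0.00 and -0.18.

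Chromatin and transcription members gave no call. Limma passed 0 of 7 in each comparison with siNonTarget, 0 of them at an unadjusted p under 0.05, and the list medians were -0.09, -0.07 and -0.07. Beside this, 4.28%, 1.89% and 0.044% of all genes passed, and 19.1%, 17.1% and 9.86% had an unadjusted p under 0.05. Trim28 (KAP1), the corepressor of KRAB zinc finger proteins, read 13.64 and 13.72 in siNonTarget, 13.50 and 13.53 in siSox2, 13.24 and 13.65 in siPsmd14, with 13.60 and 13.61 in siDdb1. The knockdown arrays overlapped the controls in siPsmd14 and lay just below them in siSox2 and siDdb1. Its 95% intervals were -0.51 to 0.18, -0.58 to 0.11 and -0.42 to 0.27, so a halving was outside each.

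Rnf2, the H2A ligase of Polycomb repressive complex 1, read 10.38 and 10.42 in siNonTarget and 10.65 and 10.66 in siPsmd14, a log2 fold change of 0.26 (adjusted p = 0.418), with -0.04 in siSox2 and 0.08 in siDdb1. Rnf20 and Rnf40 work as the pair that ubiquitinates H2B. Rnf20 was at -0.09, -0.22 and -0.07 and Rnf40 at -0.10, -0.09 and -0.22, in the same order of knockdowns. The coregulator Trim24 read 10.66 and 10.51 in siNonTarget and 10.25 and 10.35 in siDdb1 (-0.28, adjusted p = 0.624), and Trim33 (TIF1-gamma) stayed between -0.05 and 0.01.

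For DNA damage and SUMO-targeted ligases limma again called 0 of 7 against siNonTarget in each knockdown, with 2, 1 and 0 at an unadjusted p under 0.05 and medians of 0.06, -0.07 and -0.01. Among all genes 4.28%, 1.89% and 0.044% passed, and 19.1%, 17.1% and 9.86% had an unadjusted p under 0.05. Rnf4, which ubiquitinates SUMO-modified proteins, read 10.21 and 10.18 in siNonTarget, 10.50 and 10.49 in siSox2, 10.51 and 10.35 in siPsmd14, with 10.31 and 10.34 in siDdb1. Every knockdown array was higher than both controls, but by only 0.30 (adjusted p = 0.276), 0.24 (adjusted p = 0.41) and 0.13 (adjusted p = 0.862). Rnf168, which extends the H2A ubiquitin mark at DNA breaks, was at -0.44 in siPsmd14 (adjusted p = 0.219), -0.05 in siSox2 and -0.07 in siDdb1. Its dimmer probe set went the other way in siPsmd14, at 0.35 (adjusted p = 0.598), with -0.30 in siSox2 and -0.05 in siDdb1. Rnf8, which starts that mark, was at -0.19 in siPsmd14, 0.17 in siSox2 and -0.11 in siDdb1. Rnf111 (Arkadia), an amplifier of TGF-beta and Nodal signalling, was at 0.13, 0.12 and -0.01. Rnf138, a ligase of DNA end resection, was at -0.50 in siSox2 (adjusted p = 0.288).

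Of 9 germline-enriched members 8 were measured, and 5 of them were below the array median on all arrays. Limma called 0 against siNonTarget, with 0, 0 and 2 at an unadjusted p under 0.05, and the medians were -0.12, -0.10 and -0.06. The shares over all genes were 4.28%, 1.89% and 0.044% called and 19.1%, 17.1% and 9.86% at an unadjusted p under 0.05. Rnf17, a Tudor protein of germ cells, read 8.03 and 7.94 in siNonTarget and 8.58 and 8.31 in siDdb1, above both controls, with a log2 fold change of 0.46 (adjusted p = 0.441). It was at 0.03 in siSox2 and 0.20 in siPsmd14. The 55 genes outside the role lists gave 0 limma calls against siNonTarget, with 9, 11 and 8 at an unadjusted p under 0.05 and medians of -0.01, 0.05 and -0.05. They stand beside the same shares over all genes. Of these 55, the lowest in siSox2 were Rnf227 at -0.60 (adjusted p = 0.0833) and Trim37, a centrosomal ligase, at -0.41 (adjusted p = 0.172).

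**Figure D5:**
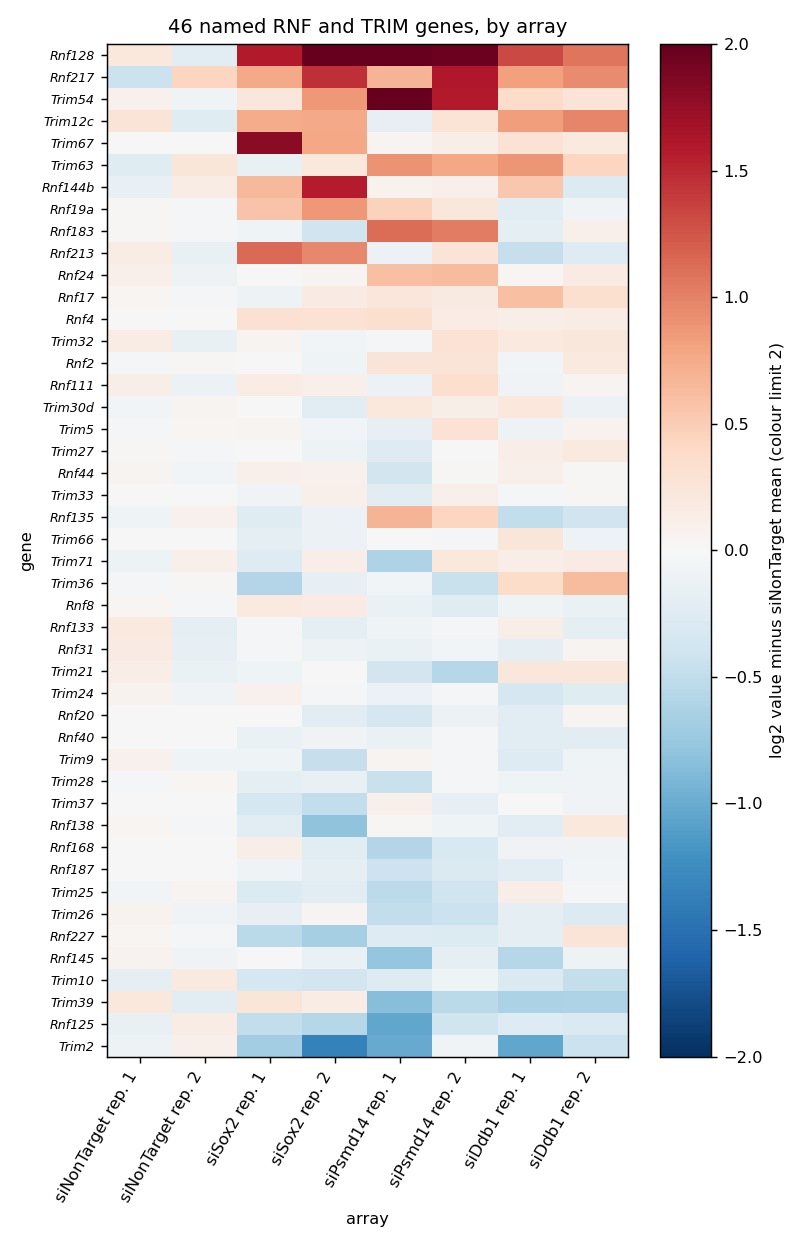
Log2 value minus the siNonTarget mean (colour, red higher and blue lower, limited at 2) for the named RNF and TRIM genes (rows, ordered by their mean over the knockdowns) on each of the 8 arrays (columns). Rnf128 is red on all 6 knockdown arrays, Trim54 mainly in siPsmd14, Trim67 and Rnf213 mainly in siSox2, and most rows are pale.

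Across all 133 genes, 9 (6.77%) had group means that spanned 1 log2 unit or more, near the 6.63% over all genes. Members above both control arrays on all 6 knockdown arrays numbered 11 (8.27%, all genes 5.87%): Rnf103, Rnf128, Rnf14, Rnf181, Rnf185, Rnf217, Rnf4, Trim54, Trim67, Trim68 and Trim69. Those below on all 6 numbered 10 (7.52%, all genes 7.39%) and included Rnf125, Rnf187, Rnf34, Rnf40 and Rnf220. The knockdowns share the control arrays, so such counts are not 3 separate observations. In siSox2, 36 members lay above both controls (27.1%, all genes 23.3%) and 34 below (25.6%, all genes 29.3%). In siPsmd14 the numbers were 42 (31.6%, all genes 22.4%) and 32 (24.1%, all genes 24.1%), and in siDdb1 33 (24.8%, all genes 19.8%) and 29 (21.8%, all genes 22.3%). Between knockdowns, both siPsmd14 arrays lay above both siSox2 arrays for 35 members (26.3%, all genes 25.5%) and below for 33 (24.8%, all genes 22.4%). For siDdb1 against siSox2 the numbers were 34 (25.6%, all genes 26.4%) and 36 (27.1%, all genes 23.9%), and for siPsmd14 against siDdb1 36 (27.1%, all genes 19.6%) and 30 (22.6%, all genes 20.5%).

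The members whose profile over the 8 arrays was most like that of a called gene were found by Pearson correlation, as a description with no test, over arrays that share groups. For Rnf128 they were Rnf14 (0.92), Rnf4 (0.90) and Trim54 (0.80). Rnf213 was closest to Trim3 (0.85), Rnf216 (0.84) and Rnf19a (0.84). For Trim54 they were Rnf24 (0.91), Rnf181 (0.88) and Rnf183 (0.82), and for Rnf183 they were Rnf24 (0.94), Rnf2 (0.89) and Rnf135 (0.85). Trim67 was closest to Rnf213 (0.81), Trim3 (0.74) and Rnf8 (0.72).

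Other genes of the ubiquitin pathway were read in the same way. Over all genes 4.28% passed in siSox2, 1.89% in siPsmd14 and 0.044% in siDdb1. Of 31 listed E1 and E2 enzymes, which load and carry the ubiquitin that RING ligases pass on, 29 were measured. Ube2h rose in siSox2 (0.78, adjusted p = 0.0326), and limma called 0 in siPsmd14 and siDdb1. At an unadjusted p under 0.05 there were 4 in siSox2, 8 in siPsmd14 and 1 in siDdb1. The shares of all genes at that p were 19.1%, 17.1% and 9.86%. The medians of this list were -0.01, -0.03 and -0.05. Of 45 RING ligases with other names, 41 were measured. Birc3, an inhibitor of apoptosis protein, rose in siSox2 (0.70, adjusted p = 0.0437), and Mdm2, the p53 ligase and itself a p53 target, rose in siPsmd14 (1.63, adjusted p = 0.00319). In siDdb1 limma called 0, with 2 at an unadjusted p under 0.05, beside 9 in siSox2 and 3 in siPsmd14. The list medians were 0.02, -0.04 and -0.08. With so few calls expected at the shares over all genes, neither list can show that calls were rare.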

How the data were processed

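Intensity values per probe set were deposited for 8 arrays, on a linear scale and computed by the authors with RMA, per the submitters' processing notes. The RMA settings: not given in the sources used here. Because RMA usually equalises array distributions, a fold change is measured from the bulk of probe sets. The RNA input was 5 ng, amplified before labelling, per the labels' protocols. Depth does not apply to arrays, and 2 arrays a group limit the precision. Log2 was taken with no pseudocount. The 64 control probe sets were left out of 45101. GEO's platform annotation gave 34945 probe sets 1 symbol, and each gene was read from its brightest probe set (highest mean log2 over the 8 arrays). All 45037 probe sets entered 1 fit of group means in limma 3.58.1 under R 4.3.3 (lmFit, eBayes, 9.02 total degrees of freedom), with Benjamini-Hochberg adjustment over them and a threshold of 0.05. The 4 groups thus shared 1 estimate of the spread. Every adjusted p comes from limma.

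The members, gene lists and tests were chosen with earlier results of these data known. The rule named members past the threshold in any comparison, the 5 largest rises and falls per knockdown with both arrays outside both controls, the 5 brightest and 5 dimmest in siNonTarget, and 16 well-known members. Other genes named were chosen after their values were seen. Alternatives were array medians subtracted, quantile normalization, leaving out the dimmer 50% of probe sets, eBayes with trend and robust, the 4 arrays of a comparison alone, a replicate block, 1 probe set per gene, the mean of all probe sets, symbols without a letter suffix, log2(value + 1) and leaving out each array. Scripts were tested on simulated data. Promoter sequences are from RefSeq (GRCm38.p6). Scanner files were not used here.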

Additional observations from a re-analysis of the deposited data

Results flagged for a closer look

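The differences below are those in which the effects of 2 knockdowns, each measured from the same siNonTarget arrays, differed past the threshold in the limma model (log2 difference and Benjamini-Hochberg adjusted p). Groups of 2 arrays are too small for a test of outlying arrays.

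Trim54 was higher in siPsmd14 than in siSox2 by 1.36 (adjusted p = 0.0225) and than in siDdb1 by 1.59 (adjusted p = 0.0376). Rnf183 was higher in siPsmd14 than in siSox2 by 1.31 (adjusted p = 0.00372) and than in siDdb1 by 1.11 (adjusted p = 0.023). Rnf135 was higher in siPsmd14 than in siSox2 by 0.74 (adjusted p = 0.0271) and than in siDdb1 by 1.0 (adjusted p = 0.0264). Rnf24 was higher in siPsmd14 than in siSox2 by 0.58 (adjusted p = 0.0494). Rnf213 stood at -0.97 in siPsmd14 relative to siSox2 (adjusted p = 0.0224) and at -1.40 in siDdb1 relative to siSox2 (adjusted p = 0.00445). Trim39 stood at -0.88 in siPsmd14 relative to siSox2 (adjusted p = 0.0291) and at -0.81 in siDdb1 relative to siSox2 (adjusted p = 0.0366). Rnf19a stood at -0.85 in siDdb1 relative to siSox2 (adjusted p = 0.0192), and Trim36 was higher there by 0.86 (adjusted p = 0.044).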

How the results depend on the processing

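No sign was reversed among the calls of single members. Over 258 combinations of a followed result and a setting other than leaving out an array, 235 stayed the same and 23 became weaker. Over 192 that left out 1 array, 114 stayed the same and 78 became weaker. The followed results were all calls and also Rnf128, Trim12c and Trim39 in siDdb1 and Trim39 in siPsmd14, each against siNonTarget. Those added results were never calls and count as the same whenever 1 array was left out. The share that stayed the same therefore overstates how often calls were kept. When an array was left out, the lone array of its group was assumed to vary like the other groups. The count of calls then ranged from 0 to 5 in siSox2, 0 to 4 in siPsmd14 and 0 to 0 in siDdb1 against siNonTarget, and from 1 to 7 in siPsmd14 against siSox2, 1 to 4 in siDdb1 against siSox2 and 0 to 3 in siPsmd14 against siDdb1. With only the 4 arrays of a comparison the counts were 2 in siSox2 against siNonTarget, 1 in siPsmd14 against siSox2, 2 in siDdb1 against siSox2 and 0 in siPsmd14 against siDdb1. In siSox2 the count was 7 when p-values were adjusted over 1 probe set per gene, and 8 (7 higher and 1 lower, Trim36) with the mean of all probe sets. Comparing 4 arrays alone leaves fewer arrays to estimate the spread, 1 probe set per gene means fewer tests to adjust over, and for the mean of all probe sets the cause was not tested. With the replicate number as a block (replicate block) the counts were 4 in siSox2, 4 in siPsmd14 and 0 in siDdb1, and 6, 3 and 2 between knockdowns in the order above. The calls of Rnf19a in siSox2 (adjusted p = 0.0549), Rnf24 (0.0657), Trim36 (0.0562) and Trim54 in siPsmd14 against siDdb1 (0.0539) were lost. Deviations of same-numbered arrays correlated from -0.22 to 0.24. With 2 arrays a group, such correlations cannot decide whether the numbers pair the arrays. With the siDdb1 numbers crossed in the block, an alternative chosen after seeing the data, siSox2 had 7 calls.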
